A study of Mus musculus with 4 samples.

Results

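Nucleotide synthesis enzymes were followed through every probe set that the platform annotation gives to the symbol of 1 of 9 genes alone (Rrm1, Rrm2, Tyms, Tk1, Dut, Gart, Paics, Cad and Impdh2), and long-term haematopoietic stem cells (LT-HSC) were compared with short-term ones (ST-HSC). Of the 9 genes 8 had such a probe set, 23 in all among the 45037 probe sets of the array that are not controls, and 19 of the 23 were bright enough to be tested. Impdh2, an IMP dehydrogenase of guanine nucleotide synthesis, had none and was not analysed here. Cells were sorted from mouse marrow as lineage-negative, cKit+, Sca1+ and CD135-, with CD34- for the 2 LT-HSC samples and CD34+ for the 2 ST-HSC samples, and each sample was hybridised to 1 Affymetrix array. All donor mice were MxCre- controls, without the inducible Cre, on a background labelled C57BL/6 on LT-HSC replicate 1 and C57B/6 on the other 3 samples, and had been injected 7 times with poly(I:C), an inducer of interferon. Marrow was taken at 7.5 weeks of age, 4 weeks past the final dose, for both LT-HSC samples and for ST-HSC replicate 2. For ST-HSC replicate 3 it was taken at 8.5 weeks of age and 3 weeks past the final dose. For both ST-HSC samples the tissue entry says LT-HSC although the gate is CD34+, and the titles were followed. Nothing in the labels says whether samples were single animals or pools, so p-values measure the spread between these samples, which for the LT-HSC pair may be technical.

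DNA synthesis needs deoxynucleotides, and cells build them in steps. Purine and pyrimidine rings are assembled de novo (Gart and Paics in the purine branch, Cad in the pyrimidine branch), ribonucleotide reductase (Rrm1 with Rrm2) turns ribonucleotides into deoxyribonucleotides, and Dut, Tyms and Tk1 supply thymidylate. Transcripts of the reductase, Tyms, Tk1 and Dut are known to be made mainly as cells enter S phase, whereas most haematopoietic stem cells of adult marrow are quiescent.

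Median intensities were 19.1 and 28.3 on the LT-HSC arrays and 26.9 and 26.0 on the ST-HSC arrays, and the arrays were quantile normalized. Cd34, whose product separated the gates, read 18.3 and 23.5 on the LT-HSC arrays and 841 and 1142 on the ST-HSC arrays, the direction of the gates. Kit and Flt3 (CD135), on which both groups were gated alike, also lay lower in LT-HSC. Kit read 397 and 382 against 684 and 907 on its brightest probe set (adjusted p = 0.0498 in limma). Flt3 read 62.3 and 53.4 against 258 and 134 and did not pass (adjusted p = 0.0631). Ly6a (Sca1) had no probe set of its own. The 7 stem cell markers with a probe set (Procr, Slamf1, Mecom, Hlf, Tek, Meis1 and Fgd5) were present in both groups, with summed intensities of 4953 and 3323 on the LT-HSC arrays and 6543 and 3417 on the ST-HSC arrays. The 11 markers of B and plasma cells, which the lineage gate should remove, summed to 40267 and 40819 on the LT-HSC arrays, against 1816 and 3043 on the ST-HSC arrays, and 9 of the 11 were higher in LT-HSC. The 10 granulocyte markers summed to 4968 and 1201 on the LT-HSC arrays, against 9214 and 64540 on the ST-HSC arrays, most of it on ST-HSC replicate 3. The 5 T and NK cell markers summed to 296 and 592 on the LT-HSC arrays, against 1307 and 1437 on the ST-HSC arrays. Most of the ST-HSC sum was Nkg7, lower in LT-HSC at 137 and 313, against 1277 and 1404 on the ST-HSC arrays. Gzma (66.2 and 160 against 8.87 and 12.3) and Cd3g (59.3 and 66.2 against 6.75 and 7.07) were higher in LT-HSC. The 5 erythroid markers summed to 354 and 635 on the LT-HSC arrays, against 175 and 869.8 on the ST-HSC arrays, and Epor was higher in LT-HSC. None of the values of these 5 lists was at 0. The B and plasma cell sums and the T and NK cell sums thus differed between the groups, and the granulocyte sum was highest on ST-HSC replicate 3. The stem cell sum was highest and the erythroid sum lowest on ST-HSC replicate 2. The part of these marker signals in the results below was not tested.

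On their brightest probe sets, transcripts of the reductase subunit Rrm1, of Dut and of the purine enzyme Paics were lower in LT-HSC. Cad did not pass in either direction. Gart was mixed, since of its 4 probe sets 2 were lower in LT-HSC and 1 was higher. By brightest probe set, 4 of the 8 enzymes were lower in LT-HSC, 0 were higher and 4 (Rrm2, Tyms, Tk1 and Cad) did not pass. Over probe sets, 7 of 19 (36.8%) were lower in LT-HSC at an adjusted p under 0.05, where 5.48% of all 27022 tested probe sets were, and 1, of Gart, was higher, where 6.72% of all were. By brightest probe set of a gene, 6.41% of 12832 genes were lower and 7.92% higher. An unadjusted p under 0.05 was reached by 13 of the 19 probe sets and by 30.4% of all, and 12.2% of all passed after adjustment in either direction. On the log2(intensity + 16) scale, on which every difference and fold here is given as LT-HSC minus ST-HSC and on which dim values are understated, the 19 probe sets had a median difference of -1.41 and all tested probe sets one of -0.08. Both LT-HSC arrays lay below both ST-HSC arrays for 15 of the 19, where 34.2% of all tested probe sets did so, and above them for 4, where 26.9% did. By brightest probe set this held for 7 enzymes below (35.7% of all genes) and for Cad above (28.6% of all genes). In sorted populations, fewer cells that make a transcript and less of it per cell cannot be told apart. When either LT-HSC array was left out, 0 of the member probe sets passed in limma in either direction, and 13 (without replicate 1) and 25 (without replicate 2) of all 27022 were called lower and 402 and 401 higher. Without ST-HSC replicate 2 or 3, 13 and 9 of 18 tested member probe sets were lower and 1 was higher, where 16.8% and 11.5% of all probe sets were lower and 15.7% and 10.7% higher.

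**Figure D1:**
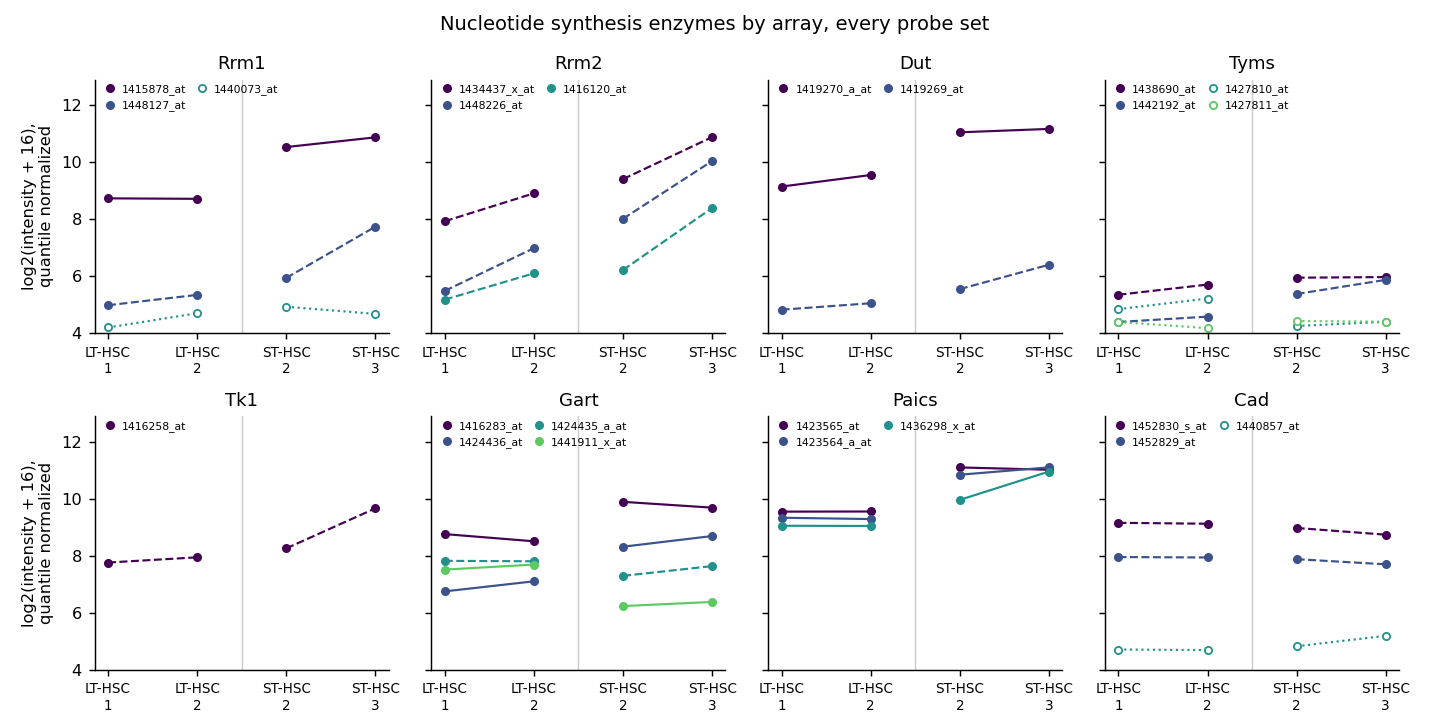
Quantile-normalized log2(intensity + 16) of all 23 probe sets of the 8 enzymes, 1 panel per gene, for the 2 LT-HSC and the 2 ST-HSC arrays. Lines join the arrays of a group and are solid for the 8 probe sets with an adjusted p under 0.05, dashed for the other tested ones and dotted, with open points, for the 4 that were too dim to be tested. Paics and the brightest sets of Rrm1 and Dut show a step between the groups, Rrm2 and Tk1 are highest on ST-HSC replicate 3, and the 4 probe sets of Gart run in opposite directions.

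Rrm1 encodes the large, catalytic subunit of ribonucleotide reductase. Its bright probe set, 1415878_at, read 402 and 405 on the LT-HSC arrays, against 1323 and 1765 on the ST-HSC arrays. The LT-HSC pair was nearly equal and the groups did not overlap, a 3.95-fold lower level in LT-HSC (difference -1.98, SE 0.24, adjusted p = 0.00503). Without LT-HSC replicate 1 or 2 it was -1.93 and -1.94 and no longer passed (adjusted p = 0.118 and 0.0983). A dimmer probe set from the same transcript record, 1448127_at, read 11.1 and 27.9 on the LT-HSC arrays, against 51.7 and 196 on the ST-HSC arrays, again without overlap, and did not pass (-1.68, SE 0.58, adjusted p = 0.106). It ranged from -0.80 without ST-HSC replicate 3 to -2.56 without ST-HSC replicate 2. With all 4 arrays it passed when they were centred on medians (adjusted p = 0.0369). The remaining set, 1440073_at, read 1.03 to 15.1 on the 4 arrays and was too dim to be tested.

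Rrm2 encodes the small subunit, which carries the radical that the reaction needs and is the subunit whose amount follows S phase. Its probe set 1434437_x_at read 212 and 466 on the LT-HSC arrays, against 632 and 1772 on the ST-HSC arrays. Probe set 1448226_at read 22.2 and 115 on the LT-HSC arrays, against 258 and 1026 on the ST-HSC arrays. Probe set 1416120_at read 15.0 and 57.6 on the LT-HSC arrays, against 67.1 and 318 on the ST-HSC arrays. All 3 put the arrays in the same order, with LT-HSC replicate 1 lowest and ST-HSC replicate 3 highest, and in none did the groups overlap. The differences were -1.73 (SE 0.54), -2.80 (SE 0.74) and -1.67 (SE 0.71), and none passed (adjusted p = 0.0818, 0.0543 and 0.166). The spread within each pair was wide: on the brightest set the LT-HSC arrays differed by 0.98 and the ST-HSC arrays by 1.47 on the log2 scale, where the medians over all tested probe sets were 0.26 and 0.39. With ST-HSC replicate 3 left out, which leaves arrays of 1 age and 1 time after injection, the differences were -0.99, -1.79 and -0.59, in the same order of sets. With ST-HSC replicate 2 left out they were -2.54, -3.90 and -2.77. With all 4 arrays, the set 1448226_at passed in limma without normalization (adjusted p = 0.0307), with arrays centred on medians (0.00986) or 75th percentiles (0.0191) and with array weights (0.0424). The set 1434437_x_at passed with median centring (0.0455).

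The reductase needs both subunits, and Gart had probe sets in both directions, so the bases just before the RefSeq starts of these 3 genes are shown (assembly GRCm38.p6, each on the strand of its gene, ending at the base before the start). Capitals mark CCAAT, the letters that the factor NF-Y is known to bind. Rrm1 lies on the plus strand, with the window at chr7:102441445-102441694, Rrm2 on the plus strand at chr12:24708004-24708253, and Gart on the minus strand at chr16:91646973-91647222.
Rrm1: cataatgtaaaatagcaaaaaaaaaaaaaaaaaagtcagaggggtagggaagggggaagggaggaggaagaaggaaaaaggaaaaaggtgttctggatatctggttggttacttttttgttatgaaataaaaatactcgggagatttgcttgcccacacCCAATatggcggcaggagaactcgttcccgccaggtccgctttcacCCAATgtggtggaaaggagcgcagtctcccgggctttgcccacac
Rrm2: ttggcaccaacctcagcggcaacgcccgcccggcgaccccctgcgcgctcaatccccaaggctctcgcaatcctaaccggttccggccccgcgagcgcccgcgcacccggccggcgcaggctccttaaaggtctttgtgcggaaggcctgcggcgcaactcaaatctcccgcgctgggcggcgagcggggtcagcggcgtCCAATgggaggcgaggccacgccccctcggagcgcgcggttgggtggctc
Gart: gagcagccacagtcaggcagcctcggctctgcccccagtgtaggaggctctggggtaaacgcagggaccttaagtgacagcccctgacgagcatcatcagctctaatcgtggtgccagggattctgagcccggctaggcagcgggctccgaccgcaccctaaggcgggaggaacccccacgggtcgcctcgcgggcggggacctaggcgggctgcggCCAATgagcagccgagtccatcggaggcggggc
The 250 bases before the start were searched on both strands for all 9 genes. For Dut, Cad, Tk1 and Tyms the start used lies inside the annotated gene. The Dut window (chr2:125247265-125247514) is therefore wholly within the gene, which begins at 125247248, and the windows of Cad, Tk1 and Tyms are partly within theirs. CCAAT was found in 4 of 9 (Rrm1 at 2 places, Rrm2, Gart and Paics), where 33.8% of 32851 RefSeq promoter windows hold it. The Myc E-box CACGTG was found in 3 of 9 (Tyms, Paics and Impdh2), where 6.02% of the windows hold it. The E2F letters TTTCCCGC, TTTCGCGC, TTTGCCGC and TTTGGCGC were in 0 of 9 windows (1.86% of all), and the CHR letters TTTGAA were in 0 of 9 (16% of all). No match of a motif overlapped a match of another, and a match or its lack is a description of these windows alone.

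Dut encodes dUTPase, which removes dUTP and yields the precursor of thymidylate. Its bright probe set 1419270_a_at read 564 and 745 on the LT-HSC arrays, against 1869 and 2116 on the ST-HSC arrays. The groups stood well apart, 3.39-fold lower in LT-HSC (-1.76, SE 0.23, adjusted p = 0.00682). Without LT-HSC replicate 1 it was -1.52 (adjusted p = 0.150) and without replicate 2 it was -1.93 (adjusted p = 0.0829). The dim set 1419269_at read 8.28 and 19.7 on the LT-HSC arrays, against 33.8 and 66.4 on the ST-HSC arrays, the same order, and did not pass (-1.04, SE 0.38, adjusted p = 0.122), although it did without ST-HSC replicate 2 (-1.42, adjusted p = 0.0303).

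Tk1 encodes cytosolic thymidine kinase, the salvage route to thymidylate. Its only probe set, 1416258_at, read 185 and 232 on the LT-HSC arrays, against 305 and 802 on the ST-HSC arrays. The groups did not overlap, but the ST-HSC arrays differed by 1.41 on the log2 scale, and the difference of -1.11 (SE 0.47) did not pass (adjusted p = 0.166). It became -0.41 without ST-HSC replicate 3 (adjusted p = 0.271) and -1.88 without ST-HSC replicate 2 (adjusted p = 3.47e-05). ST-HSC replicate 3 also held most of the granulocyte marker signal, whose part in the Tk1 values was not tested.

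Tyms encodes thymidylate synthase, the de novo route to the same nucleotide, and had only dim probe sets of its own. The set 1438690_at read 18.9 and 40.4 on the LT-HSC arrays, against 52.1 and 45.7 on the ST-HSC arrays, and 1442192_at read 2.66 and 9.21 on the LT-HSC arrays, against 27.4 and 41.9 on the ST-HSC arrays. Both sets had LT-HSC below ST-HSC on every array and neither passed (-0.43, SE 0.31, adjusted p = 0.390, and -1.14, SE 0.33, adjusted p = 0.0679). The untested set 1427810_at ran the other way, at 8.63 and 24.2 on the LT-HSC arrays and 3.43 and 6.08 on the ST-HSC arrays, and the untested 1427811_at lay between 2.35 and 6.15 on all 4 arrays. All 4 sets were dim, with no array above 52.1. A brighter set annotated jointly to Tyms and the pseudogene Tyms-ps was lower in LT-HSC (-2.04, adjusted p = 0.0248 in limma). It is not counted for Tyms and is described under other observations.

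Paics, whose product carries out the carboxylation and the following step of purine ring assembly, was lower in LT-HSC on each of its 3 probe sets. The set 1423565_at read 762 and 748 on the LT-HSC arrays, against 1948 and 1958 on the ST-HSC arrays. The set 1423564_a_at read 653 and 614 on the LT-HSC arrays, against 1619 and 2041 on the ST-HSC arrays. On both sets the LT-HSC arrays were close to each other and far from ST-HSC, with folds of 2.85 and 3.17 (-1.51, SE 0.20, adjusted p = 0.00696, and -1.66, SE 0.22, adjusted p = 0.00658). With either LT-HSC array left out they lay between -1.47 and -1.65 and did not pass (adjusted p = 0.119 to 0.159). The third, 1436298_x_at, read 527 and 518 on the LT-HSC arrays, against 915 and 1875 on the ST-HSC arrays, and passed narrowly (-1.41, SE 0.35, adjusted p = 0.0459), a call lost under 7 of 15 other settings (adjusted p up to 0.302). Between the arrays of a group the brightest Paics set differed by 0.0054 in LT-HSC and 0.081 in ST-HSC, far less than the reductase subunit Rrm2. In GRCm38.p6 Paics overlaps head to head by 277 bases with Ppat, the amidophosphoribosyltransferase of the first committed purine step. Ppat read 121 and 109 on the LT-HSC arrays, against 361 and 267 on the ST-HSC arrays, and was also lower in LT-HSC (-1.24, SE 0.32, adjusted p = 0.0495), while its second probe set did not pass (-0.82, adjusted p = 0.285).

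Gart encodes a trifunctional enzyme of 3 purine steps, and its 4 probe sets did not move together. The set 1416283_at read 413 and 349 on the LT-HSC arrays, against 869.8 and 815 on the ST-HSC arrays, and 1424436_at read 77.2 and 126 on the LT-HSC arrays, against 318 and 399 on the ST-HSC arrays. Both passed as lower in LT-HSC, by 2.23-fold (-1.16, SE 0.26, adjusted p = 0.0346) and 2.99-fold (-1.58, SE 0.32, adjusted p = 0.0260). In contrast, 1441911_x_at read 150.2 and 193 on the LT-HSC arrays, against 68.4 and 65.3 on the ST-HSC arrays, and was higher in LT-HSC by 2.46-fold (1.30, SE 0.30, adjusted p = 0.0389). The set 1424435_a_at read 195 and 210 on the LT-HSC arrays, against 159 and 183 on the ST-HSC arrays, and did not pass (0.35, SE 0.30, adjusted p = 0.476). In each of the 4 the groups did not overlap, 2 with LT-HSC below and 2 with LT-HSC above. The sets 1424435_a_at and 1424436_at were designed from the same transcript record and lay on opposite sides of 0. As background, the mouse Gart locus is known to give, beside the full mRNA, a shorter one that codes for the first activity alone, and in Affymetrix naming the ending x marks probes that can also match other sequences. The brightest Rrm2 set, 1434437_x_at, and the Paics set 1436298_x_at, called lower in LT-HSC, have the same ending. The sources used here do not say which transcript each Gart set reads. The call of 1416283_at was lost with the arrays centred on medians (adjusted p = 0.0843) or 75th percentiles (0.0773) and without an intensity trend (0.0531), and that of 1441911_x_at without normalization (0.0685) or without the filter (0.0586).

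Cad encodes the trifunctional enzyme that begins pyrimidine synthesis, and it was the enzyme whose bright probe sets did not lie below ST-HSC. The set 1452830_s_at read 572 and 547 on the LT-HSC arrays, against 477 and 414 on the ST-HSC arrays. The set 1452829_at read 219 and 231 on the LT-HSC arrays, against 237 and 191 on the ST-HSC arrays, values that overlapped as deposited. Neither passed (0.28, 95% interval -0.33 to 0.90, adjusted p = 0.499, and 0.16, 95% interval -0.52 to 0.84, adjusted p = 0.745), and both intervals leave out a lower level in LT-HSC of the size seen for Rrm1, Dut or Paics. The dim set 1440857_at, at 6.57 and 11.5 on the LT-HSC arrays and 13.1 and 21.8 on the ST-HSC arrays, was not tested.

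**Figure D2:**
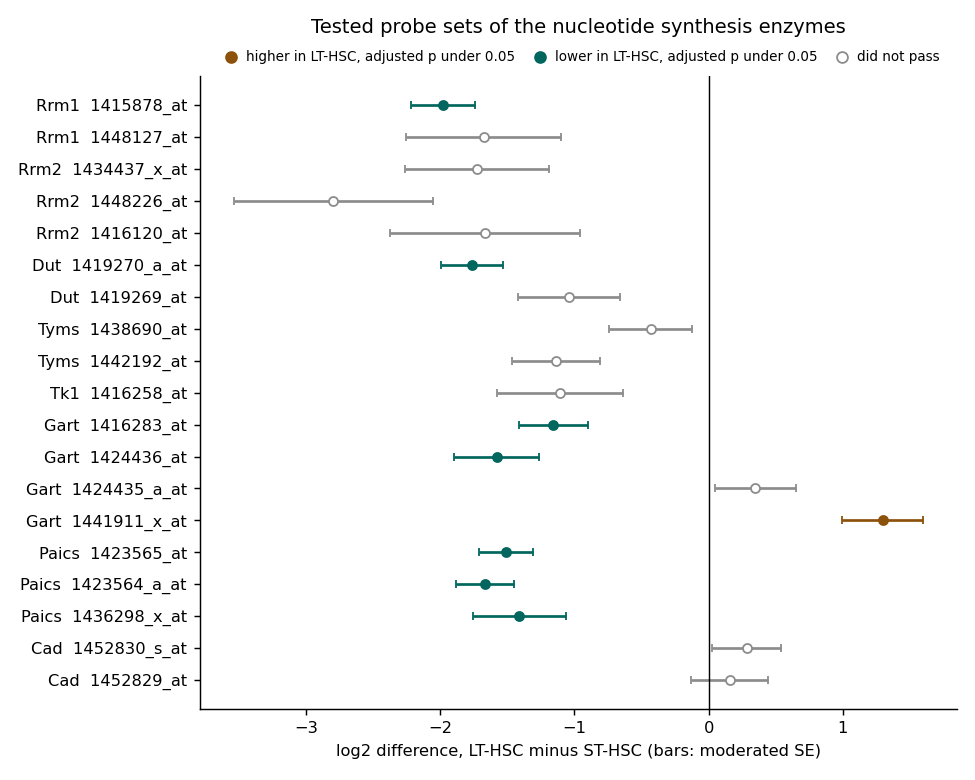
Log2 difference, LT-HSC minus ST-HSC, of the 19 tested probe sets, ordered by gene; points are limma estimates and bars their moderated standard error. The 7 filled points left of 0 belong to Rrm1, Dut, Gart and Paics, the filled point right of 0 is the Gart set 1441911_x_at, and open points did not pass.

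**Figure D3:**
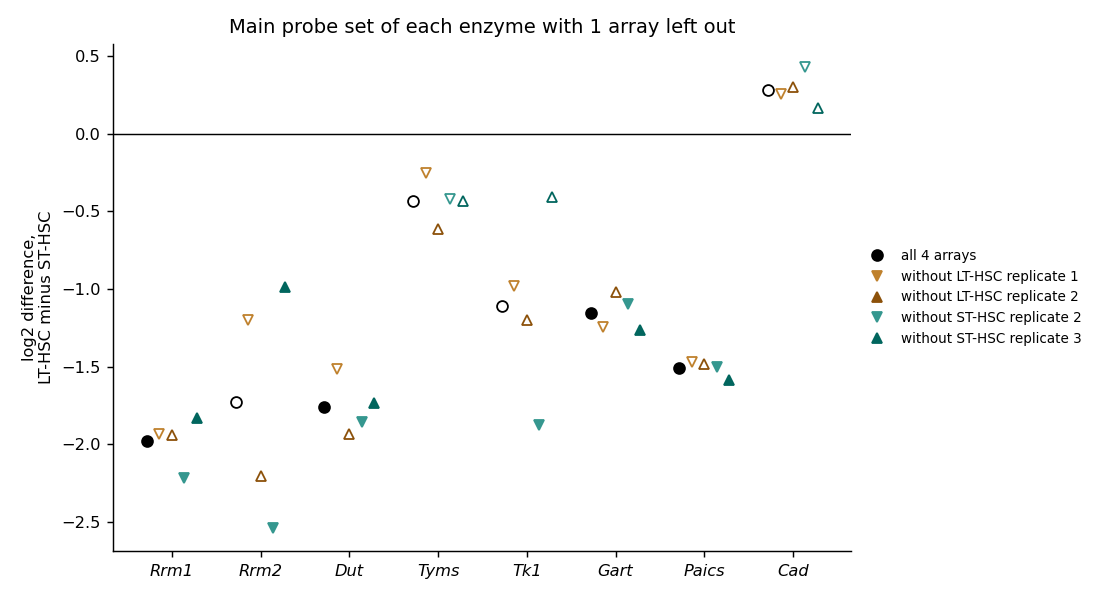
Log2 difference, LT-HSC minus ST-HSC, of the brightest probe set of each enzyme with all 4 arrays (circles) and with 1 array left out (triangles); filled symbols have an adjusted p under 0.05. Paics stays between -1.47 and -1.59 and Rrm1 between -1.83 and -2.22, whereas Tk1 runs from -0.41 to -1.88 and Rrm2 from -0.99 to -2.54 with the ST-HSC array left out; no point is filled where an LT-HSC array is left out.

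The other genes of nucleotide supply were counted from 6 lists, by the brightest probe set of each gene. Of 57 tested genes 12 were lower in LT-HSC, where 6.41% of all genes were, 1 was higher, where 7.92% were, and 44 did not pass, with a median difference of -0.68 against -0.08 over all genes. Without LT-HSC replicate 1 or 2, 0 passed in either direction, and without ST-HSC replicate 2 or 3, 32 of 57 and 25 of 56 were lower and 5 and 8 higher, where 19.4% and 14.8% of all genes were lower and 17.7% and 12.7% higher.

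Of 6 further genes of deoxynucleotide supply 2 fell and 4 did not pass (median -1.0). Dtymk, thymidylate kinase, the step after Tyms and Tk1, read 743 and 802 on the LT-HSC arrays, against 2176 and 2145 on the ST-HSC arrays. It stood clearly apart and fell on each of its 3 probe sets (brightest -1.64, SE 0.20, adjusted p = 0.00491). Txnrd1, thioredoxin reductase, which feeds electrons towards the reductase, read 235 and 264 on the LT-HSC arrays, against 514 and 852 on the ST-HSC arrays (-1.35, adjusted p = 0.0395), and its other, dimmer probe set did not pass (-0.11, adjusted p = 0.839). Rrm2b, the small subunit used outside S phase, read 72.1 and 118 on the LT-HSC arrays, against 165 and 136 on the ST-HSC arrays, and did not pass (-0.47, adjusted p = 0.352).

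Of 11 further purine genes 2 fell and 9 did not pass (median -0.87): Ppat, described above, and Atic, the bifunctional enzyme of the last steps to IMP. Atic read 208 and 213 on the LT-HSC arrays, against 569 and 736 on the ST-HSC arrays, with a close LT-HSC pair (-1.54, SE 0.27, adjusted p = 0.0180). The other, dimmer probe set of Atic overlapped between the groups and did not pass (0.05, adjusted p = 0.950). Of 7 further pyrimidine genes 2 fell and 5 did not pass (median -0.19). Ctps, CTP synthase, read 158 and 200.4 on the LT-HSC arrays, against 527 and 711 on the ST-HSC arrays (-1.66, SE 0.29, adjusted p = 0.0164). Dhodh, the mitochondrial dihydroorotate dehydrogenase that acts after Cad, read 44.6 and 63.0 on the LT-HSC arrays, against 194 and 156 on the ST-HSC arrays (-1.33, SE 0.30, adjusted p = 0.0355), while its other probe set did not pass (-0.96, adjusted p = 0.0856). Ctps and Dhodh were thus lower in LT-HSC on arrays where Cad did not pass. They are the called genes of this list, and the other 5 did not pass, with differences from -1.20 (Umps) to 0.44 (Nme2). The difference between Ctps or Dhodh and Cad was not tested.

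Salvage genes, which recycle bases and nucleosides, held 4 that fell among 12 tested, with 8 that did not pass (median -1.01). Dck, deoxycytidine kinase, read 378 and 461 on the LT-HSC arrays, against 1096 and 1089.8 on the ST-HSC arrays, and fell on both of its probe sets (brightest -1.42, SE 0.24, adjusted p = 0.0158). Uck1, a uridine-cytidine kinase, read 89.2 and 90.5 on the LT-HSC arrays, against 291 and 253 on the ST-HSC arrays (-1.35, adjusted p = 0.0344). Hprt, which salvages hypoxanthine and guanine, read 334 and 411 on the LT-HSC arrays, against 717 and 1607 on the ST-HSC arrays (-1.56, adjusted p = 0.0476). Its difference was -2.19 without ST-HSC replicate 2 and -1.0 without replicate 3. Pnp, purine nucleoside phosphorylase, was the fourth (-1.22, adjusted p = 0.0492), a call lost under 8 of 10 other settings with all 4 arrays (adjusted p up to 0.158). Of 10 genes of folate one-carbon supply, which donates carbon to purines and thymidylate, 2 fell and 8 did not pass (median -0.72). They were Mthfd1l, the mitochondrial formate-producing enzyme (104 and 135 on the LT-HSC arrays, against 405 and 330 on the ST-HSC arrays, -1.42, adjusted p = 0.0281), and Psat1 of serine synthesis (669.6 and 825 on the LT-HSC arrays, against 1738 and 1377 on the ST-HSC arrays, -1.21, adjusted p = 0.0294). Among the same 10 settings with all arrays, the call was lost under 4 for Hprt and for Ppat, 3 for Psat1, 2 for Txnrd1 and 1 for Dhodh, at adjusted p between 0.0508 and 0.0875.

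Of 11 tested genes of nucleotide breakdown and clean-up 0 were lower in LT-HSC, 1 was higher and 10 did not pass (median -0.57), counts near the shares over all genes. With either LT-HSC array left out 0 passed, and without ST-HSC replicate 2 or 3, 5 and 3 were lower and 2 were higher in each case. The gene that was higher was Samhd1, the enzyme that hydrolyses deoxynucleotides and is known to lower their pool in resting cells. It read 682 and 509 on the LT-HSC arrays, against 221 and 272 on the ST-HSC arrays, without overlap (1.24, SE 0.30, adjusted p = 0.0449), and 3 of its 5 tested probe sets passed as higher. Its call was lost without the filter (0.0565) and without an intensity trend (0.0560). Samhd1 is also expressed in mature blood cells. The B and plasma cell markers were higher on the same LT-HSC arrays, while the granulocyte markers summed higher on the ST-HSC arrays. The part of either in the Samhd1 values was not tested.

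**Figure D4:**
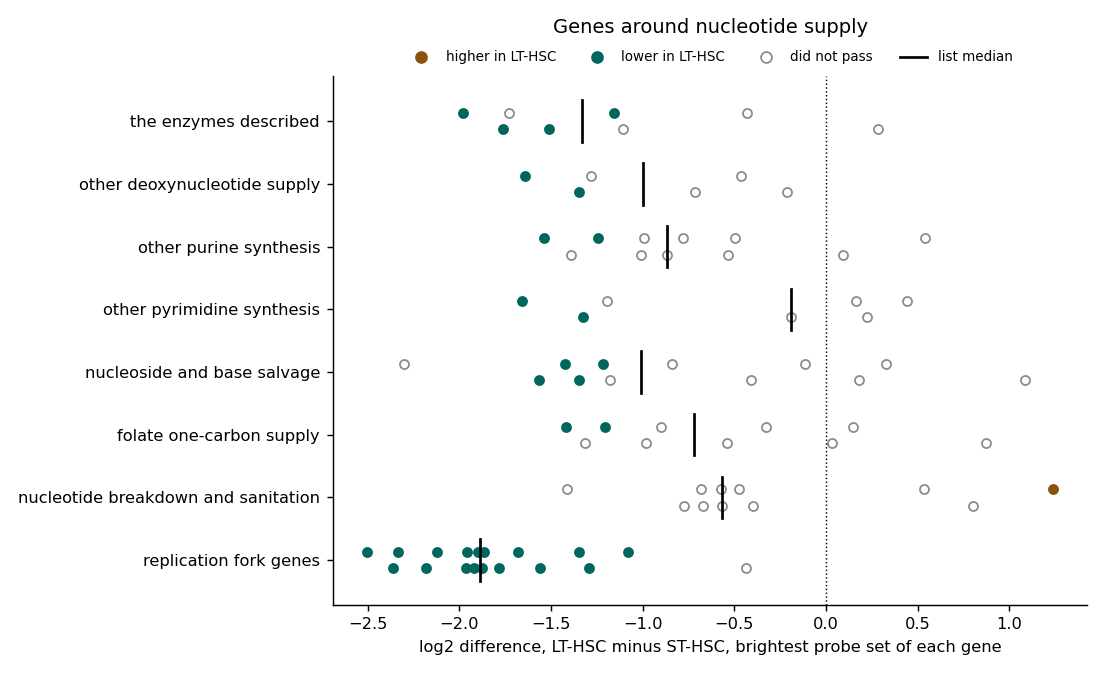
Log2 difference, LT-HSC minus ST-HSC, of the brightest probe set of each tested gene in the enzymes described, in 6 lists of other nucleotide genes and in 18 replication fork genes. Filled points passed at an adjusted p under 0.05, open points did not, and a black bar marks each list's median, from -1.89 for replication fork genes to -0.19 for other pyrimidine genes; Samhd1 is the filled point right of 0.

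Beside the enzymes that make deoxynucleotides, the genes that use them were counted for scale. Of 18 replication fork genes 17 were lower in LT-HSC, where 6.41% of all genes were, 0 were higher, where 7.92% were, and 1 did not pass. Their median was -1.89 against -1.33 over the 8 enzymes. Mcm7, Lig1 and Mcm6 had the smallest p. With either LT-HSC array left out, 1 fork gene passed, Mcm7 (-2.30 without replicate 1, adjusted p = 0.0273, and -2.31 without replicate 2, adjusted p = 0.0310). Of 12824 other genes, the 5 whose brightest probe set followed the average of the 8 enzymes most closely over the 4 arrays were Lonrf1, Nup85 (a nuclear pore protein), 2410002F23Rik, Eif4e (the cap-binding translation factor) and Pip4p2. Their root mean square distance was 0.013 to 0.024 on the log2 scale; with 4 arrays this is a description of likeness in these samples.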

How the data were processed

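RNA was extracted with Trizol, amplified in 2 rounds and biotin-labelled, per the labels' protocols. The deposited values are linear intensity values, 1 per probe set and array; the sources used here do not give the summarising software or whether arrays were scaled. After 64 control probe sets were left out of 45101, log2(intensity + 16) was quantile normalized, since array medians spanned 0.33. Probe sets with a mean above the 40th percentile (27022) were fitted with limma 3.58.1 in R 4.3.3 (lmFit, eBayes with intensity trend, 2 residual and 4.84 prior degrees of freedom), with Benjamini-Hochberg adjustment over all of them and a threshold of 0.05. The smallest two-sided exact permutation p for 2 against 2 arrays is 0.33, so limma alone was used; the number of arrays limits precision. The fit was run on simulated data with independent normal noise and a log2 shift of 2 in the changed probe sets. That shift is larger than the difference of most enzyme probe sets, so recovery at smaller differences was not tested. Probe sets were named from the supplied platform annotation, and those with several symbols were left out. Promoter windows and positions are RefSeq's (GRCm38.p6). The remainder of the genotype, shared by all samples, is not reported here.

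The enzymes and gene lists were chosen with earlier results of these data known. Named were all enzymes, up to 3 genes per list and direction of smallest p among called genes whose groups did not overlap, and the 5 nearest genes; Rrm2b and Pnp were added after their values were seen. Alternatives changed normalization, pseudocount (1, 64), filter, spread model, threshold and the arrays used; those for the other lists were added after seeing the data.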

Additional observations from a re-analysis of the deposited data

How the results depend on the processing

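Each tested enzyme probe set kept its direction under all settings run that could test it. The number of enzyme probe sets lower in LT-HSC, 7 with all arrays, ranged from 0 to 13 with 1 array left out and was 4 at 1 probe set per gene; the number higher, 1, ranged from 0 to 1 with 1 array left out and was 0 without normalization, without the filter and at 1 probe set per gene. Their median of -1.41 became -1.20 and -1.16 with arrays centred on medians and 75th percentiles, -1.07 with a pseudocount of 64, -1.14 without the filter, and -0.86 to -1.82 with 1 array left out. Of all probe sets 3296 were called, 5749 at a threshold of 0.10 and 415 to 8774 with 1 array left out. The other nucleotide genes lower in LT-HSC, 12, were 7 without an intensity trend, 22 at the threshold of 0.10 and 0 to 32 with 1 array left out; those higher, 1, were 0 without the filter or the trend, 2 at 0.10 and 0 to 8 with 1 array left out. Replication fork genes lower, 17, were 1 to 18 with 1 array left out. With 1 array left out, its lone partner was assumed to vary like the other group, and fewer arrays alone can cost calls. Without an ST-HSC array the residual spread was that of the LT-HSC pair alone, which may be technical. Calls gained there are no added support. The cause of the other changes was not tested. No paired analysis was possible because LT-HSC (replicates 1 and 2) and ST-HSC (replicates 2 and 3) share fewer than 2 replicate numbers.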

Other observations

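A probe set annotated jointly to Tyms and the pseudogene Tyms-ps, 1424991_s_at, belongs to neither symbol alone and stands outside the comparisons above. It read 60.9 and 149 on the LT-HSC arrays, against 389 and 613 on the ST-HSC arrays, without overlap (difference -2.04, SE 0.40, adjusted p = 0.0248 in limma). Leaving out LT-HSC replicate 1 gave -1.55 (adjusted p = 0.259) and leaving out its partner gave -2.49 (0.0966). Leaving out ST-HSC replicate 2 gave -2.43 and leaving out replicate 3 gave -1.71. The signal of the gene and of the pseudogene cannot be told apart on it.

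Tk1 and Afmid, an arylformamidase gene on the other strand, overlap by 585 bases in GRCm38.p6, the other head-to-head overlap among the 9 enzymes beside Paics and Ppat.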
